A study of Homo sapiens with 27 samples.

Results

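Heat-shock proteins are chaperones that keep other proteins folded. Their genes respond to heat-shock factors such as HSF1, which bind short repeated elements in the promoters. Some of the inducible genes have few introns or none, while others, such as HSP90AA1, have more. HSPA1A is an intronless gene for inducible HSP70, and its mRNA leaves the nucleus without having been spliced. TPR is a protein of the nuclear basket, the filaments on the nuclear side of the nuclear pore. The levels of 10 heat-shock genes in nuclear, cytoplasmic/ER and total RNA of cells with and without TPR are described here, since the study asked which mRNAs need TPR to leave the nucleus. The 10 genes are HSPA1A, HSPA1B, HSPA8, HSP90AA1, HSP90AB1, DNAJB1, HSPB1, HSPH1, HSPD1 and HSPE1. They were found by symbol, through their Ensembl gene IDs, among 34464 genes of the deposited table. Each of the 10 was found once, and all 10 passed the minimum mean of 1 FPKM (sequenced fragments of a gene, set in relation to the length of its transcript and the size of the library) that 14611 genes passed.

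The cells were U2OS, a human osteosarcoma line, infected with lentiviruses for 1 of 3 shRNAs and selected with puromycin. The control groups carried a scrambled shRNA, and the knockdown groups carried the shRNAs 'TPR A' or 'TPR D', which both target TPR. Each shRNA had 3 replicates, and poly(A)+ RNA of the nuclear, cytoplasmic/ER and total fractions was sequenced from each, which makes 27 libraries in 9 groups of 3. No heat shock is named in the labels, and whether infection or selection stressed the cells was not tested. The labels number the replicates but do not say whether they were separate infections, so the p-values measure the spread between these samples. RNA without a poly(A) tail was not measured, and fewer RNA-bearing cells and less RNA per cell cannot be told apart in bulk samples.

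TPR mRNA in the total fraction was at 25.3 to 28.2 FPKM in the control libraries and at 3.23 to 6.01 FPKM in the 6 TPR-depleted libraries (log2 change -2.59 for TPR A, limma adjusted p = 0.00120, and -2.44 for TPR D, limma adjusted p = 0.00160). A pair of control libraries went against their labels. The 13 genes of the mitochondrial genome, whose RNA lies outside the nucleus, made up 0.774% to 2.42% of the summed FPKM in 8 of the 9 nuclear libraries but 21.8% in the library labelled control nuclear replicate 2. In the library labelled control total replicate 2 they made up 0.738%, against 15.8% to 24.7% in the other 8 total libraries. MALAT1, a nuclear RNA, was at 83.6 FPKM in the former, against 16.3 to 40.1 in the other nuclear libraries, and at 16.3 FPKM in the latter, against 71.6 to 207 in the other total libraries. By both measures each of these libraries resembled the fraction that the other is labelled as, as exchanged libraries would, but an exchange was not tested. No library was relabelled, and main values that rest on them are also given without this culture. Replicates 1 were labelled in another style than replicates 2 and 3, which may mark a batch; values within these sets are given where a difference is described. The depth was ample for these genes. An estimated 3969 reads or more stood behind each of the 10 genes in every library, so counting error was small beside the spread between replicates.

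On GRCh37, the build of the annotation used here (GENCODE release 44 placed on that build), HSPA1A (ENSG00000204389) lies on the plus strand of chromosome 6 from 31783320 to 31785723, and HSPA1B (ENSG00000204388) lies downstream of it on the same strand from 31795515 to 31798031. HSPA1B has 1 exon. HSPA1A has 1 annotated transcript with 1 exon and 1 with 2. The other members have introns. HSPB1 (chromosome 7, 75931990 to 75933612, plus strand) and HSPE1 (chromosome 2, 198364864 to 198368173, plus strand) have a median of 3 exons and short mRNAs, with medians of 776.5 and 557 nt. DNAJB1 (chromosome 19, 14625581 to 14671203, minus strand) has a median of 4 exons and HSPA8 (chromosome 11, 122928197 to 122933938, minus strand) a median of 5. HSP90AA1 (chromosome 14, 102547079 to 102606036, minus strand) has a median of 8, HSP90AB1 (chromosome 6, 44213903 to 44221625, plus strand) and HSPD1 (chromosome 2, 198351308 to 198381461, minus strand) have 12 each, and HSPH1 (chromosome 13, 31709110 to 31736525, minus strand) has 17 exons and the longest median mRNA, 3570 nt.

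HSPA1A and HSPA1B encode nearly the same protein, and their transcripts share sequence. Of the 31-base words in HSPA1A transcripts, 76.0% also occurred in HSPA1B transcripts, and of those in HSPA1B 73.3% occurred in HSPA1A, so the split of reads between both genes was an estimate and values of either gene alone are uncertain. HSPA1A held 50.7% to 71.3% of the summed FPKM of the pair over the 27 libraries (median 60.9%). HSPE1 shared 18.1% of its words with the readthrough gene HSPE1-MOB4, which had a mean of 13.6 FPKM. Every other member shared at most 3.49% of its words with any gene.

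The promoters of most members, but not all, share a short element. A heat-shock element is made of inverted GAA units, searched here as GAANNTTC and TTCNNGAA in the 250 bases before each RefSeq start on GRCh38.p14. Both patterns are palindromes, so 1 strand covers both, and neighbouring matches can overlap. Of the 10 members, 8 had a match in at least 1 window, against 13.96% of 27305 genes with a RefSeq window among those searched and 11.6% of 34935 windows. HSPH1 and HSPE1 had none in these windows. For 7 members 1 stretch with matches each is shown, with the matches in capitals, since heat-shock factors are known to bind elements of this kind. Those of HSPA1A (chr6:31815425-31815456, plus strand), HSPA1B (chr6:31827621-31827652, plus strand) and HSPB1 (chr7:76302479-76302510, plus strand) hold 1 match each:
HSPA1A: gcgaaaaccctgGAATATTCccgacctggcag
HSPA1B: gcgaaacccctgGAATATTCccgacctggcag
HSPB1: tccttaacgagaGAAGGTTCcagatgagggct
Those of HSPA8 (chr11:123062342-123062378, minus strand), HSP90AB1 (chr6:44247819-44247855, plus strand, before 1 of its 3 RefSeq starts) and HSP90AA1 (chr14:102087093-102087144, minus strand, before 1 of its 2 starts) hold overlapping matches, which make 3 units in a row, a pattern found in 0.4408% of all windows:
HSPA8: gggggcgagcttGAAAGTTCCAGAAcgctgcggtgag
HSP90AB1: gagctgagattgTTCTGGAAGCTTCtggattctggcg
HSP90AA1: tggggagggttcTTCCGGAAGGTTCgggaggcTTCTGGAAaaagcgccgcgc
That of DNAJB1 (chr19:14518425-14518486, minus strand, before 1 of its 3 starts) holds a pair of matches apart from each other:
DNAJB1: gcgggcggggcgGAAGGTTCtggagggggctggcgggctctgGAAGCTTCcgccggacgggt
HSPA8 and HSP90AB1 each held another stretch with 3 units in a row in the same window, and HSPD1 had 3 overlapping matches before 1 of its 2 starts. A match is a description of the letters and not evidence of binding in these cells.

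The members spanned a wide range of levels. The constitutive chaperones HSPA8 (the cognate HSP70) and HSP90AB1 (HSP90 beta) had means of 2084 and 2050.3 FPKM over the 27 libraries and ranked 60 and 63 of 14611 genes. HSPB1, a small heat-shock protein, had 1281 FPKM (rank 115) and HSP90AA1, the inducible HSP90 alpha, 634 FPKM (rank 187). HSPD1 and HSPE1, the mitochondrial chaperonin and its co-chaperonin, whose genes overlap on opposite strands in this annotation, had means of 508 and 500.3 FPKM. These means pool the fractions, and by fraction HSPD1 and HSPE1 had medians of 658 and 446 FPKM in the nuclear, 358 and 605 in the cytoplasmic/ER and 386 and 345 in the total libraries. HSPA1A followed with 132 FPKM (rank 1072), then HSPH1 (an HSP110 exchange factor) with 126, DNAJB1 (a J-domain partner of HSP70) with 124 and HSPA1B with 80.6 FPKM. In the total libraries alone the median of HSPH1, 140.0 FPKM, lay above that of HSPA1A, 91.0 FPKM. FPKM is scaled by transcript length, so these levels can be set side by side. The libraries of HSPA1A, HSPH1 and DNAJB1 overlapped, as did those of HSPA8 and HSP90AB1 and those of HSPD1 and HSPE1, so the order within each of these sets is not beyond the spread. HSPA6, a strictly stress-induced HSP70, had a mean of 0.947 FPKM and did not pass the minimum.

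HSPA1A in the total fraction was at 91.6, 324 and 82.2 FPKM in control replicates 1, 2 and 3, at 81.6, 112 and 87.1 with TPR A and at 79.7, 127 and 91.0 with TPR D. The value of 324 came from the library labelled control total replicate 2, which lay above all others, and the remaining 8 libraries lay between 79.7 and 127. In the nuclear fraction HSPA1A was at 185, 96.2 and 203 FPKM with the control shRNA, at 102, 217 and 233 with TPR A and at 128, 220.2 and 173 with TPR D. The lowest nuclear value, 96.2, was that of the library labelled control nuclear replicate 2. In the cytoplasmic/ER fraction HSPA1A was at 83.2, 106 and 102 FPKM with the control shRNA, at 54.8, 136 and 92.7 with TPR A and at 61.1, 177 and 117 with TPR D. The 3 groups overlapped in each fraction, and within TPR A and TPR D replicate 1 was the lowest and replicate 2 the highest in the cytoplasmic/ER and total fractions.

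**Figure D1:**
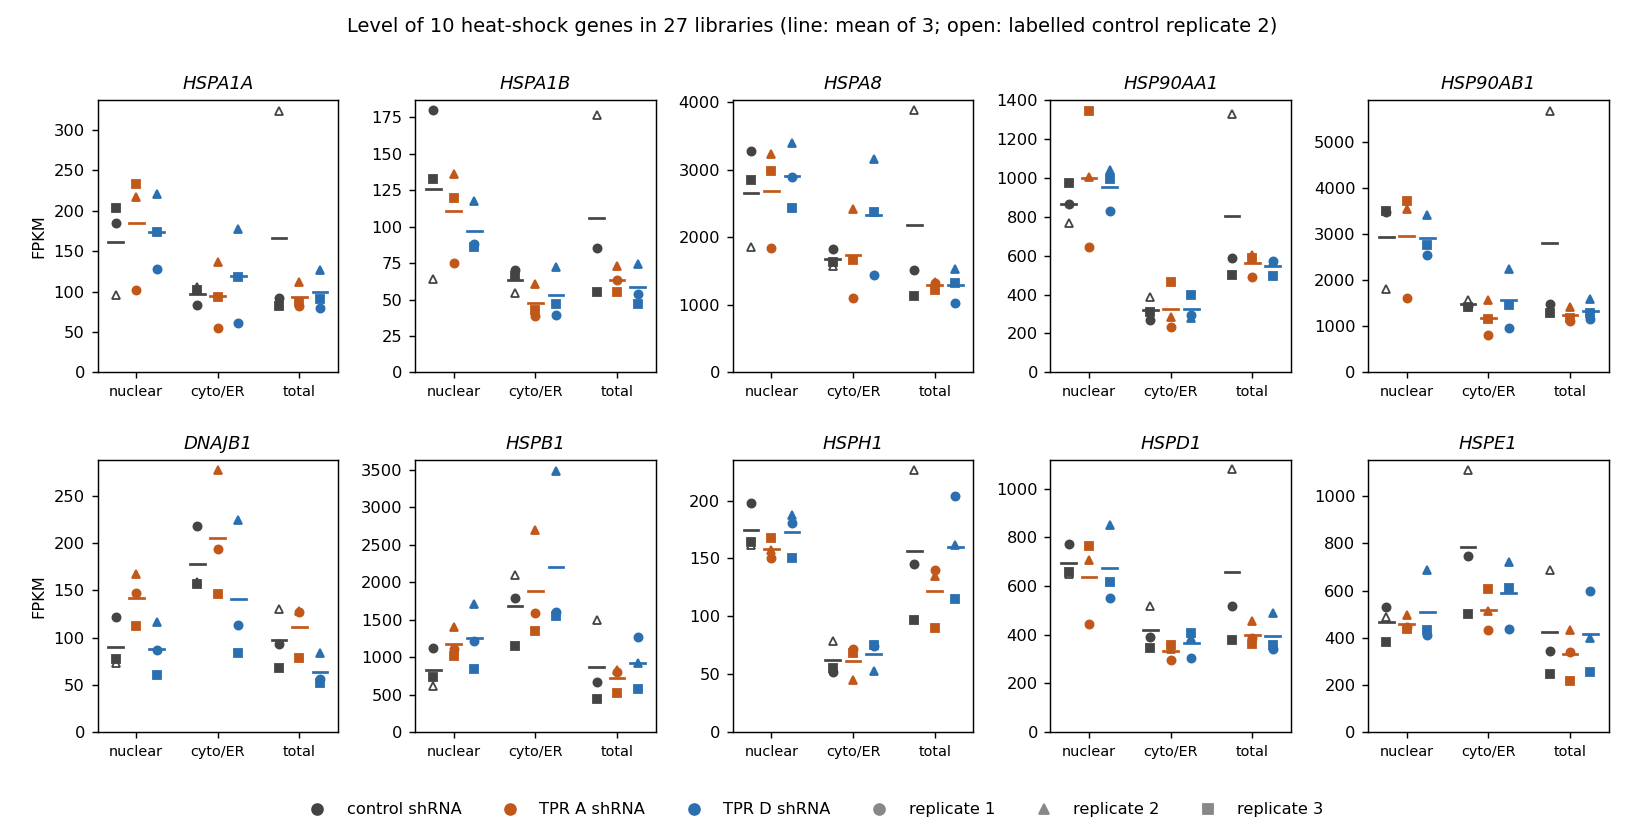
FPKM of the 10 heat-shock genes (1 panel each, axis from 0) in the nuclear, cytoplasmic/ER and total libraries with the control, TPR A and TPR D shRNAs; symbols are single libraries, lines are means of 3, and open triangles are the libraries labelled control replicate 2. In the total fraction the open triangle is the highest of the 9 libraries for all 10 genes, for example 324 FPKM for HSPA1A and 5678 FPKM for HSP90AB1.

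Depletion of TPR was followed by no call among the 10 genes in the total fraction. For TPR A, 0 of 10 members passed an adjusted p of 0.05 in limma, where 0.821% of all genes did, and 0 passed an unadjusted p of 0.05, where 12.6% did. For TPR D the counts were 0 and 0 against 0.753% and 14.6%. The log2 change of HSPA1A was -0.48 with TPR A (SE 0.45, 95% interval -1.41 to 0.45, adjusted p = 0.691) and -0.39 with TPR D (SE 0.45, 95% interval -1.32 to 0.54, adjusted p = 0.711). These intervals include both no change and a 2-fold loss of the mRNA. HSPA1B had -0.51 and -0.64 (adjusted p = 0.571 and 0.406), and with the FPKM of HSPA1A and HSPA1B summed the change was -0.50 with either shRNA. Of the 10 members, 9 lay below 0 with TPR A (median -0.40) and 7 with TPR D (median -0.44), beside medians of -0.01 for all genes in both comparisons. Both comparisons use the same control libraries.

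These negative values rested on 1 library. Without the culture labelled control replicate 2, the members had medians of 0.06 (TPR A) and 0.03 (TPR D), 3 and 4 of the 10 lay below 0, and 0 passed the adjusted threshold. The log2 change of HSPA1A was then 0.12 with TPR A and 0.21 with TPR D (adjusted p = 0.996 and 0.950). The control mean of HSPA1A was 166 ± 137 FPKM (SD, n = 3) with this library and 86.9 FPKM (n = 2) without it, beside 93.6 ± 16.2 FPKM (SD, n = 3) with TPR A and 99.1 ± 24.4 FPKM (SD, n = 3) with TPR D. HSP90AB1 was at 1492, 5678 and 1292 FPKM in the control libraries, 1123, 1409.9 and 1192 with TPR A and 1152, 1588 and 1289 with TPR D. Its log2 change went from -0.78 to -0.14 for TPR A and from -0.66 to -0.02 for TPR D when this culture was left out. Within replicate 1 alone the median difference of the members from control in the total fraction was -0.13 (TPR A) and -0.22 (TPR D), and within replicate 3 alone 0.05 and 0.06.

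**Figure D2:**
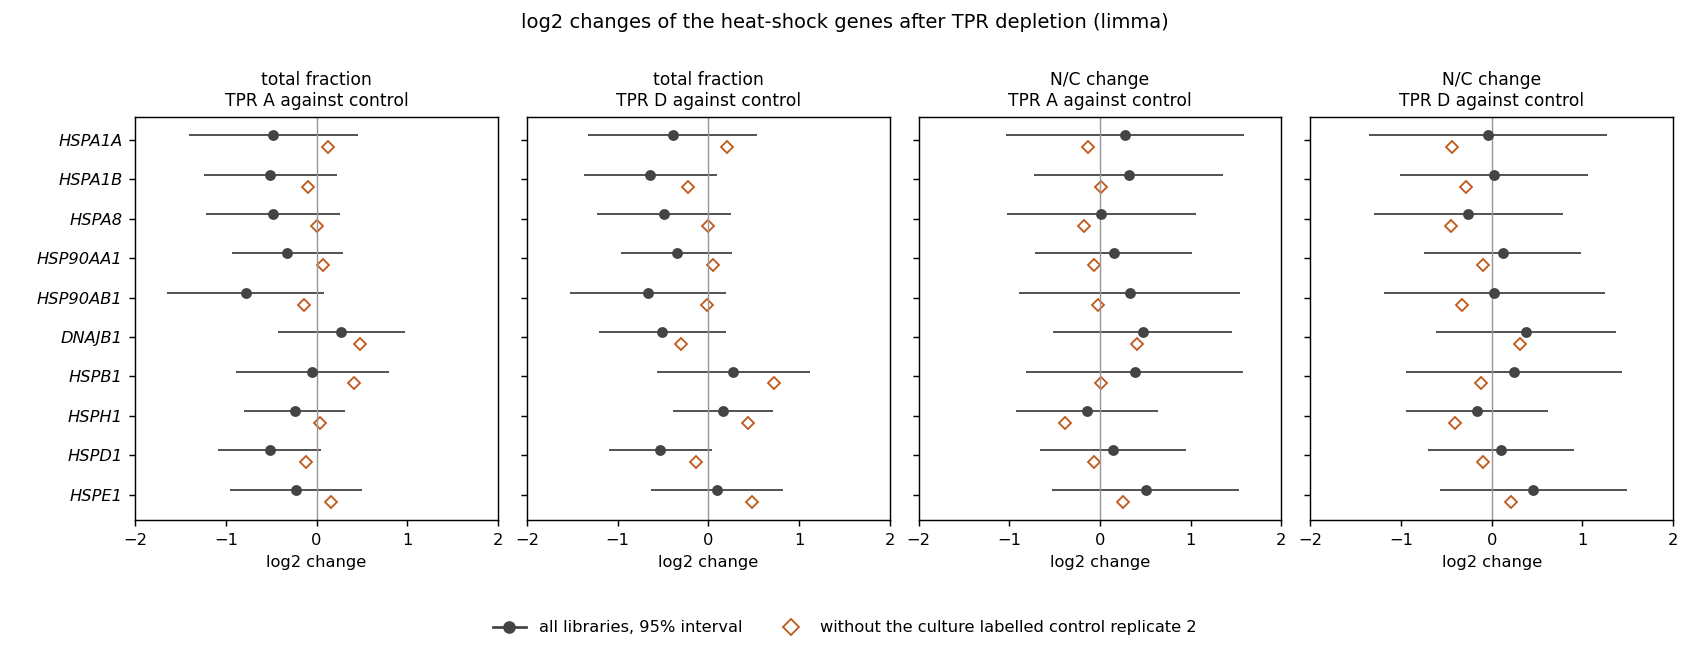
log2 changes against control of the 10 heat-shock genes in the total fraction and of their N/C ratio, for TPR A and TPR D; filled circles with bars are limma estimates and 95% intervals from all libraries, open diamonds are the estimates without the culture labelled control replicate 2. All 40 intervals include 0, and leaving out that culture moves HSPA1A in the total fraction from -0.48 to 0.12 for TPR A.

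DNAJB1 was the only member with a difference between both TPR shRNAs at an unadjusted p under 0.05. In the total fraction it was at 93.2, 129.9 and 67.9 FPKM with the control shRNA, at 127, 128 and 78.7 with TPR A and at 55.9, 83.7 and 52.1 with TPR D. The groups TPR A and TPR D overlapped, since 83.7 in TPR D replicate 2 was above 78.7 in TPR A replicate 3, but within each replicate number TPR A was higher. The log2 difference between TPR A and TPR D was 0.78 (SE 0.34, 95% interval 0.08 to 1.48, unadjusted p = 0.0303 from limma), and its adjusted p of 0.567 missed the threshold. Against control DNAJB1 had 0.27 with TPR A and -0.51 with TPR D (adjusted p = 0.776 and 0.493). Within replicate 1 the log2 difference between the shRNAs was 1.16, and within replicates 2 and 3 it was 0.60. Without TPR A replicate 1 or 2 or TPR D replicate 1 or 3 it fell short of the unadjusted threshold as well, with values of 0.67, 0.66, 0.70 and 0.65 and unadjusted p-values of 0.111, 0.0966, 0.0950 and 0.0774 from limma. This member is 1 of 10 with an unadjusted p under 0.05, beside 7.41% of all genes, and 0 of 10 members passed the adjusted threshold, beside 0.281%.

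The remaining members also had their highest total value in the library labelled control replicate 2. HSPD1 was at 517, 1079 and 378 FPKM with the control shRNA and between 342 and 490.4 FPKM in the 6 TPR-depleted libraries, and its log2 changes of -0.52 and -0.53 (adjusted p = 0.449 and 0.376) became -0.12 and -0.13 without control replicate 2. HSPA8 was at 1516, 3890.3 and 1135 FPKM with the control shRNA and between 1024 and 1533 FPKM with the TPR shRNAs. HSPB1 and HSPE1 had their second highest total libraries in TPR D replicate 1, with 1262 and 599 FPKM, and log2 changes for TPR D of 0.27 and 0.10 (adjusted p = 0.780 and 0.921). HSPH1 was at 146, 226 and 97.0 FPKM with the control shRNA, 140.0, 135 and 89.6 with TPR A and 204, 161 and 115 with TPR D, with groups that overlapped.

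In the separate fractions 0 of 10 members were called. In the nuclear fraction the changes of the members ran from -0.15 to 0.68 with TPR A (median 0.01) and from -0.25 to 0.60 with TPR D (median 0.08), where 0.903% and 0.479% of all genes passed the adjusted threshold and 12.2% and 9.13% the unadjusted one. In the cytoplasmic/ER fraction they ran from -0.51 to 0.21 with TPR A (median -0.05) and from -0.42 to 0.42 with TPR D (median 0.02), where 0.623% and 0.575% of all genes passed the adjusted threshold and 11.6% and 9.42% the unadjusted one. In both fractions 0 members passed an unadjusted p of 0.05. Without the culture labelled control replicate 2 the nuclear medians of the members turned to -0.17 with TPR A and -0.08 with TPR D, the changes ran from -0.51 to 0.55 and from -0.67 to 0.42, and 0 members were called. HSPA1B then had -0.67 with TPR D (unadjusted p = 0.0347, adjusted p = 0.530 from limma). DNAJB1 had the highest nuclear estimate with TPR A, from 122, 72.8 and 76.9 FPKM in control to 147, 167 and 112 with TPR A (log2 change 0.68, adjusted p = 0.434, and 0.55 without control replicate 2), and 112 lay below the highest control value.

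The N/C ratio is the nuclear FPKM of a culture divided by its cytoplasmic/ER FPKM, each first divided by the median-of-ratios factor of its library. Because of this scaling it ranks genes without giving the true share of molecules in the nucleus. A ratio of 1 lies near the median gene, so nuclear and cytoplasmic are meant relative to that gene. The median log2 N/C ratio of all genes was -0.014 in control, 0.007 in TPR A and -0.006 in TPR D cells. MALAT1, a nuclear RNA, had ratios of 2.43 to 9.54 in control cells. It had 1.43 to 7.25 with TPR A and 1.72 to 6.60 with TPR D. NEAT1, another nuclear RNA, had 3.46 to 10.8, 2.59 to 7.83 and 3.09 to 7.08. Relative to the median gene the members fell into a cytoplasmic and a nuclear set, and the latter overlapped with the range of MALAT1. DNAJB1 (0.473 to 0.771, median 0.609) and HSPB1 (0.303 to 0.763, median 0.644) were below 1 in all 9 cultures, and HSPE1 (0.454 to 1.03, median 0.778) was below 1 in 8 of 9. HSPH1 (2.06 to 3.90, median 2.46) and HSP90AA1 (2.04 to 3.74, median 2.91) were above 2 in all 9. HSPA8 (1.06 to 2.02, median 1.68), HSPA1A (0.936 to 2.52, median 1.88), HSPD1 (1.30 to 2.21, median 1.94), HSPA1B (1.22 to 2.83, median 2.06) and HSP90AB1 (1.19 to 3.20, median 2.26) lay between. Within the low set of 3 genes and within the other 7, neighbours in this order overlapped. HSPA8 (at most 2.02) did not overlap with HSP90AA1 (at least 2.04) or HSPH1 (at least 2.06). Pooled over cultures the 2 sets overlapped, since HSPE1 reached 1.03 and HSPA1A fell to 0.936 in the culture labelled control replicate 2. In each of the 9 cultures taken alone, the highest of the 3 was below the lowest of the other 7. The 3 genes with low ratios include those with the shortest median mRNAs, HSPE1 and HSPB1, and the 3 have 3 or 4 exons at the median. HSPA1A and HSPA1B, with medians of 1.5 and 1 exons, stood with the genes of 5 to 17 exons.

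**Figure D3:**
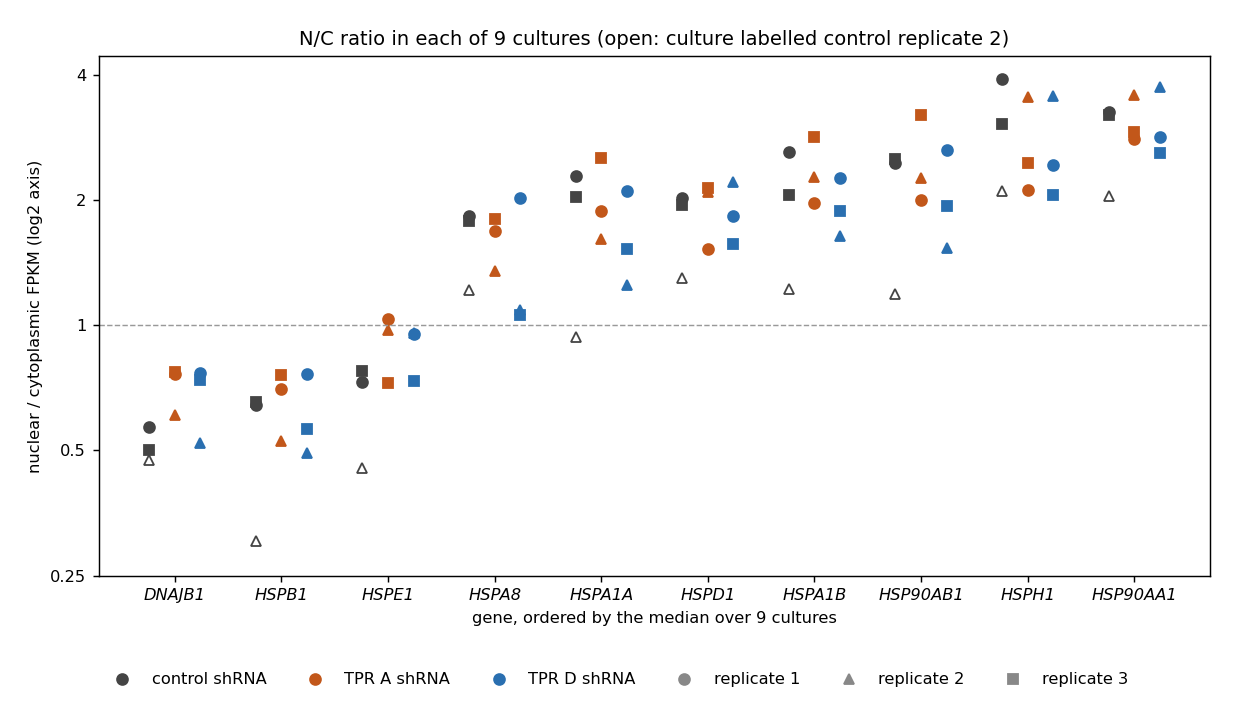
N/C ratio (nuclear divided by cytoplasmic/ER FPKM, each rescaled by its library factor, log2 axis) of the 10 heat-shock genes in each of 9 cultures. Genes are ordered by their median, colours are shRNAs and symbols are replicates. The open triangle is the culture labelled control replicate 2, and the dashed line is a ratio of 1, which lies near the median gene. DNAJB1, HSPB1 and HSPE1 lie at or below 1.03, HSPH1 and HSP90AA1 above 2, and the open triangle has the lowest ratio for 8 of the 10 genes.

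Tested over the 3 control cultures, HSPH1 (log2 N/C ratio 1.55, SE 0.27), HSP90AA1 (1.47, SE 0.30), HSPA1B (0.90, SE 0.35) and HSPD1 (0.78, SE 0.27) were higher in the nuclear libraries and DNAJB1 (-0.96, SE 0.34) was higher in the cytoplasmic/ER libraries, with limma adjusted p-values of 0.000147, 0.000544, 0.0468, 0.0274 and 0.0277. These are 5 of 10 members, beside 39.4% of all genes. HSPA1A had a log2 N/C ratio of 0.70 (SE 0.45, adjusted p = 0.222), from ratios of 2.28, 0.936 and 2.03 in control replicates 1, 2 and 3. The ratio of 0.936 joins the library labelled nuclear replicate 2, which held 21.8% of mitochondrial FPKM, and without this culture the estimate was 1.10 (adjusted p = 0.0692). HSPA1B, which then had 1.21 (adjusted p = 0.00822), HSP90AA1, HSPH1 and HSPD1 kept their calls without it, HSP90AB1 gained one (from 0.96, adjusted p = 0.0717, to 1.31, adjusted p = 0.0124) and DNAJB1 lost its call (-0.90, adjusted p = 0.111). Without control replicate 1 or without control replicate 3 only HSPH1 and HSP90AA1 were called. The call of HSPA1B was held in 7 of 18 alternatives and was lost, for example, with FPKM as deposited (adjusted p = 0.0654) and with no trend in eBayes (adjusted p = 0.0514). With HSPA1A and HSPA1B summed the log2 N/C ratio of the pair was 0.78 and was not called (adjusted p = 0.127). With the culture as a block, HSPB1 was called as well (-0.99, adjusted p = 0.0182 against 0.0575 without the block).

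The order was similar in the TPR-depleted cells, which is a comparison added after the data were seen. With TPR A, HSP90AA1 (log2 N/C ratio 1.62), HSPH1 (1.40), HSP90AB1 (1.29), HSPA1B (1.22) and HSPD1 (0.92) were called, 5 of 10 members beside 28.4% of all genes. With TPR D, HSP90AA1 (1.59), HSPH1 (1.38), HSPA1B (0.93) and HSPD1 (0.89) were called, 4 of 10 beside 31.7%. The call of HSPA1B was held in 16 of 18 alternatives with TPR A, where it was lost without TPR A replicate 2 or 3 (adjusted p = 0.0769 and 0.117). With TPR D it was held in 8 of 18. The 10 losses there include FPKM as deposited and no minimum of FPKM. They also include leaving out control replicate 1 or any TPR A or TPR D replicate. For the pair summed the values were 1.06 (adjusted p = 0.0519) with TPR A and 0.75 (adjusted p = 0.162) with TPR D, so the pair as a whole was called in none of the 3 groups of cells. HSPA1A had ratios of 1.88, 1.61 and 2.52 with TPR A and of 2.1, 1.25 and 1.52 with TPR D, which gave log2 ratios of 0.98 (adjusted p = 0.108) and 0.67 (adjusted p = 0.274). With TPR A it was called with the replicate number as a block (adjusted p = 0.0409) and without control replicate 2, where the shared spread was estimated anew (adjusted p = 0.0470), and in none of the other 16 alternatives. DNAJB1 had ratios of 0.765, 0.609 and 0.771 with TPR A and 0.769, 0.520 and 0.738 with TPR D, above the control ratios of 0.570, 0.473 and 0.502 except in TPR D replicate 2, with log2 ratios of -0.49 and -0.59 (adjusted p = 0.292 and 0.197). With the culture as a block its value with TPR D was called (adjusted p = 0.0276).

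The change of the N/C ratio after TPR depletion, which asks whether an mRNA became more nuclear, was called for 0 of 10 members with either shRNA. It was also called for 0% of all genes in both and in the comparison of TPR A with TPR D, and 1.47%, 0.821% and 0.335% of all genes, but 0 members, passed an unadjusted p of 0.05. For HSPA1A the log2 change was 0.27 with TPR A (SE 0.63, 95% interval -1.04 to 1.59) and -0.04 with TPR D (SE 0.63, 95% interval -1.35 to 1.28). Both intervals include no change as well as a 2-fold rise in the N/C ratio of HSPA1A. They come from the main fit, which leaves the nuclear and cytoplasmic/ER libraries of 1 culture unpaired. An interval with the culture as a block is not given, so this limit is stated for the main fit only. For HSPA1B the log2 changes were 0.31 (95% interval -0.72 to 1.35) and 0.03 (-1.01 to 1.07). Of the 10 members, 9 lay above 0 with TPR A (median 0.29) and 7 with TPR D (median 0.07), with HSPH1 below 0 in both. Coding genes with a median of 1 exon, 201 in all, had medians of 0.36 and 0.28, and the median of all genes was 0.00 in both. These medians include the culture labelled control replicate 2, and those without it are not given. HSPA1A, with a median of 1.5 exons over its annotated transcripts, was not counted among these 201.

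Here too the values turned on the culture labelled control replicate 2. Without it, 4 (TPR A) and 2 (TPR D) of the 10 members lay above 0, the medians were -0.05 and -0.20, and HSPA1A had -0.13 and -0.44, with 0 members called. Within replicate 1 the log2 N/C ratio of HSPA1A was lower with TPR A by 0.28 and with TPR D by 0.12 than with the control shRNA. Within replicate 3 it was higher with TPR A by 0.31 and lower with TPR D by 0.42. DNAJB1 (0.47 for TPR A, 0.38 for TPR D) and HSPE1 (0.50 and 0.46) remained above 0 without that culture, at 0.41 and 0.32 and at 0.26 and 0.22, and none of these values passed an unadjusted p of 0.05. DNAJB1 had 0.42 (TPR A) and 0.43 (TPR D) within replicate 1 and 0.62 and 0.56 within replicate 3. HSPE1 had 0.50 and 0.38 within replicate 1 but -0.10 and -0.08 within replicate 3.

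Libraries that were high in HSPA1A were also high in HSP90AB1, HSPA8, HSPA1B and HSPD1, and the other members followed it less closely. After the mean of each of the 9 groups was subtracted, the log2 level of HSPA1A had a Pearson correlation of 0.975 with that of HSP90AB1 over the 27 libraries, the highest of all genes, and of 0.931 with HSPA8 (rank 19), 0.858 with HSPA1B and 0.811 with HSPD1. It was 0.686 with HSP90AA1, 0.588 with HSPB1, 0.482 with HSPE1, 0.440 with DNAJB1 and 0.126 with HSPH1 (ranks 1509 to 6144), beside a median of -0.01 over all genes. The points share libraries, so whatever differs between libraries of one group enters these values, and they are given with no test. Among genes outside the list, ACTR5 (0.953), NOC2L (0.951), CCT3 (a subunit of the cytosolic chaperonin, 0.951), GMPPA (0.946) and BCAP31 (0.944) were closest. Over the 24 libraries without control replicate 2 HSP90AB1 still had the highest correlation of all genes (0.969), HSPA8 had 0.889, HSPA1B 0.804 and HSPD1 0.75. The others went to 0.489 for HSP90AA1, 0.368 for HSPB1, 0.336 for DNAJB1, 0.329 for HSPE1 and -0.34 for HSPH1. The closest other genes were then AHCY (0.939), ADGRE1 (0.928), ACTR5 (0.928), NAPA (0.926) and ALDOC (0.925).

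**Figure D4:**
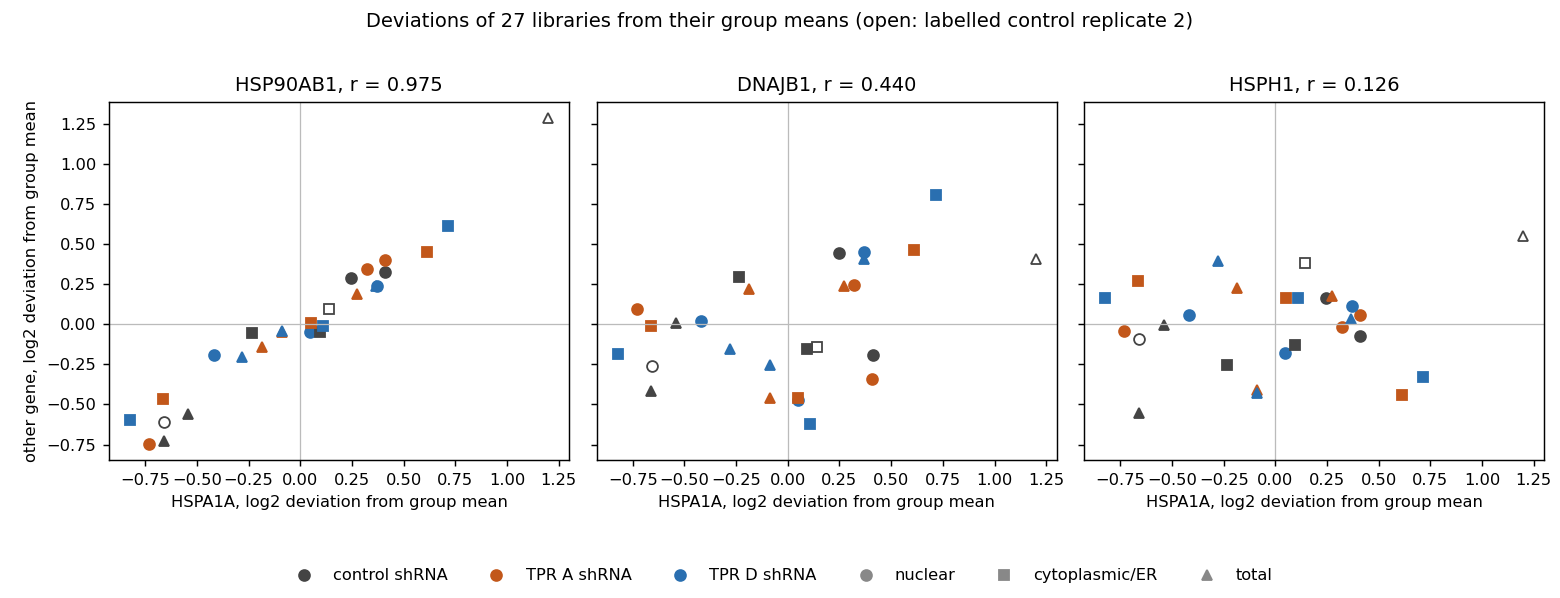
log2 deviation from the group mean of HSP90AB1, DNAJB1 and HSPH1 (vertical axes) against that of HSPA1A (horizontal axis) in 27 libraries; colours are shRNAs, symbols are fractions and open symbols are libraries labelled control replicate 2. HSP90AB1 follows HSPA1A closely (r = 0.975), DNAJB1 loosely (0.440) and HSPH1 hardly (0.126), and the total library labelled control replicate 2 is the farthest point to the right.

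A further 69 genes of the chaperone network were in the lists, of which 59 passed the minimum. They were HSF regulators, other HSP70 and J-domain proteins, small heat-shock proteins, co-chaperones of HSP70 and HSP90, and the TRiC/CCT chaperonin that folds actin and tubulin. In the 7 comparisons of levels between shRNAs and the 3 of N/C changes limma called 0 of 59. At an unadjusted p under 0.05 in the total fraction 2 had values above and 4 below 0 with TPR A, and 1 above and 5 below 0 with TPR D, which is 6 of 59 or 10.2% in each, below the 12.6% and 14.6% of all genes, while 0 of 59 had one for the N/C changes. The medians of the 59 in the total fraction were -0.16 with either shRNA, and -0.03 (TPR A) and 0.01 (TPR D) without the culture labelled control replicate 2, where 3 of 59 had an unadjusted p under 0.05 in each. HSPA9, the mitochondrial HSP70, had -0.56 with TPR A and -0.59 with TPR D (adjusted p = 0.259 and 0.199). BAG4, an HSP70 exchange factor, had 0.56 and 0.75 (adjusted p = 0.355 and 0.161). TRAP1, the mitochondrial HSP90, had -1.08 with TPR D (adjusted p = 0.148) and DNAJB12, a J-domain protein of the ER membrane, -0.75 with TPR A (adjusted p = 0.110). Both were less negative with the other shRNA. The lowest value in the HSP90 list with TPR A was -0.74, and in the list of other J-domain proteins with TPR D it was -0.38. HSPB8 had -0.44 and CCT8 -0.60 with TPR D (adjusted p = 0.355 and 0.286). Without that culture HSPA9 had -0.34 and -0.37, BAG4 0.38 and 0.57, TRAP1 -0.71 with TPR D, and DNAJB12 -0.51 with TPR A. All 8 TRiC/CCT genes had values below 0 with both shRNAs (median -0.41 and -0.48), and without that culture the medians were -0.04 and -0.14, with 8 and 6 of the 8 below 0. HSF1, the main factor of the heat-shock response, had -0.48 and -0.45 (adjusted p = 0.457 and 0.431), and HSF2 had 0.10 and -0.17.

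In control cells the chaperone mRNAs were spread on both sides of an N/C ratio of 1, as the members were. Of the 59 genes, 13 were called as higher in the nuclear and 6 as higher in the cytoplasmic/ER libraries, which is 32.2%, below the 39.4% of all genes. Without the culture labelled control replicate 2 the counts were 14 and 4, or 30.5% beside 29.8% of all genes, with BAG1 and TCP1 no longer called and SERPINH1 called. Among the HSF regulators, HSF1 (log2 N/C ratio -1.36, adjusted p = 0.000362) and HSBP1 (-1.01), which binds HSF1, were cytoplasmic, and HSF2 (0.94, adjusted p = 0.000491) was nuclear. HSPA13 (1.69), HSPA9 (1.26) and HSPA4 (1.06) of the HSP70 family were nuclear. So were the J-domain genes DNAJB4 (1.68), DNAJB14 (1.36), DNAJC7 (0.88), DNAJA1 (0.86) and DNAJA2 (0.62), where DNAJB1 was cytoplasmic. CHORDC1 (1.12), PPID (0.68), CCT2 (1.01) and CCT6A (0.65) were nuclear as well. STUB1 (-1.28), an HSP70-bound ubiquitin ligase, CRYAB (-1.14), a small heat-shock protein like HSPB1, BAG1 (-0.77) and TCP1 (-0.45) were cytoplasmic. With TPR A and with TPR D 17 of 59 were called, or 28.8% in each, beside 28.4% and 31.7% of all genes. In these cells BAG5 (0.90 with TPR A and 0.84 with TPR D, adjusted p = 0.0394 and 0.0493), another HSP70 exchange factor, was called as nuclear. So was SERPINH1 (1.12 and 0.97, adjusted p = 0.0101 and 0.0211), the collagen chaperone HSP47. SERPINH1 had 0.48 in control cells (adjusted p = 0.234), and it was called there without the culture labelled control replicate 2. For the N/C change 0 of the 59 genes had an unadjusted p under 0.05 from limma with either shRNA.

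**Figure D5:**
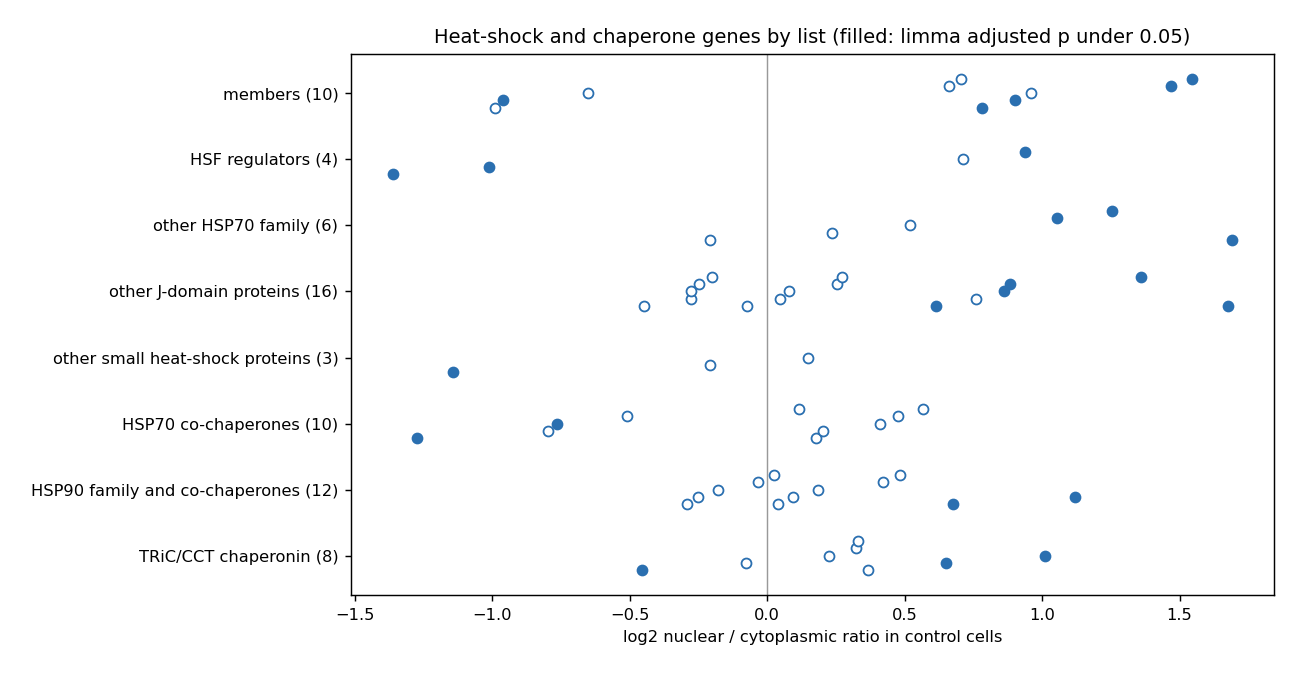
log2 nuclear / cytoplasmic ratio in control cells for the 10 heat-shock genes (labelled members) and 59 other chaperone genes, by list with the number of genes measured; each point is a gene, spread vertically only to separate points, and filled points passed a limma adjusted p of 0.05. Filled points lie on both sides of 0, from -1.36 for HSF1 to 1.69 for HSPA13.

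For several members the total library held less than both fractions of the same culture. In the 8 cultures other than the one labelled control replicate 2, rescaled FPKM in the total library was below both the nuclear and the cytoplasmic/ER value for 2 to 7 of the 10 members, and 30.7% to 36.6% of all genes lay below both. DNAJB1 was among them in all 8 cultures, and HSPA8, HSPB1 and HSPE1 in 7 of 8 each. DNAJB1 in control replicate 1, for instance, was at 93.2 FPKM in the total, 122 in the nuclear and 219 in the cytoplasmic/ER library. In the culture labelled control replicate 2 the count was 0 below and 7 above both, where 28.2% of all genes lay below and 29.3% above both. In the other 8 cultures members lay above both only in TPR D replicate 1, where 2 did.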

How the data were processed

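U2OS RNA from 3 fractions, 3 shRNAs and 3 replicates was sequenced by the authors as directional poly(A)+ libraries. The authors quantified reads with Salmon on Gencode v.19 protein-coding and lncRNA transcripts (hg19), used tximport for gene-level values, and deposited these as FPKM, and DESeq2 was used for their own fold changes. Here FPKM of 14611 genes with a mean above 1 and outside the mitochondrial genome were divided by median-of-ratios factors (0.954 to 1.06), 0.1 was added and log2 taken. Counts were not used here. limma 3.58.1 in R 4.3.3 was fitted to all 27 libraries in 9 groups (eBayes with trend, Benjamini-Hochberg adjustment over all genes, threshold 0.05) and was tested on simulated data. From the steps of low values, 1 FPKM on 1 kb stood for 32.7 to 90.3 reads. Correlations, promoter searches and shared 31-base words were computed in Python 3.11.15.

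The 10 genes, the chaperone lists and the tests were chosen with earlier results of these data known. Named are all 10 genes, listed chaperone genes that were called in any comparison (otherwise the one with the lowest p in the total fraction per list), HSF1, HSF2, HSPA6, fraction markers, and the 5 genes closest to HSPA1A. Nuclear and cytoplasmic/ER libraries of 1 culture come from the same cells, and their deviations from the group means had correlations of 0.223 to 0.469, so N/C comparisons were also fitted with the culture as a block. In the total fraction control and TPR A libraries of the same number had correlations of 0.137 to 0.324. Promoter windows were RefSeq's on GRCh38.p14.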

Additional observations from a re-analysis of the deposited data

How the results depend on the processing

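No member was called in any comparison between shRNAs under any alternative run: FPKM as deposited, pseudocounts of 1 and 0.01, no minimum, a minimum mean of 5 FPKM, each culture left out, the replicate block, no trend, only the groups compared, and HSPA1A and HSPA1B summed. Of 1321 repeated values for single genes in 71 results, 1226 kept direction and side of the threshold, 38 lost a call and 15 gained one. The remaining 42 changed sign, none of them called. The number of members with a called N/C ratio in control cells was 3 with no minimum and 2 to 6 with 1 culture left out; it was 2 to 6 in TPR A cells, and in TPR D cells 2 with no minimum and 2 to 5. HSPH1 and HSP90AA1 were called in each of these. Paired by the replicate block, the counts were 7, 6 and 6, and with the block by culture 6, 5 and 5. The block changed no other call than those of HSP90AB1, HSPB1, HSPA1A and DNAJB1. In the main fit the counts were 5, 5 and 4, beside 39.4%, 28.4% and 31.7% of all genes. The shares of all genes under the alternatives are not given for the N/C ratios, so the shifts in these counts are no result about the members. The replicate block raised the calls over all genes in the total fraction from 120 to 378 for TPR A and from 110 to 461 for TPR D, with 0 members among them. Leaving out 1 culture moved the log2 change in the total fraction with TPR A from -0.81 to 0.12 for HSPA1A, -0.82 to 0.0096 for HSPA8, -0.57 to 0.076 for HSP90AA1, -0.41 to 0.41 for HSPB1, -0.52 to 0.034 for HSPH1 and -0.53 to 0.16 for HSPE1. With TPR D it moved from -0.72 to 0.21 for HSPA1A, -0.83 to 0.00082 for HSPA8, -0.60 to 0.050 for HSP90AA1, -0.091 to 0.73 for HSPB1, -0.12 to 0.44 for HSPH1 and -0.21 to 0.48 for HSPE1. The N/C change with TPR A moved from -0.13 to 0.51 for HSPA1A, -0.18 to 0.14 for HSPA8, -0.072 to 0.27 for HSP90AA1, -0.028 to 0.51 for HSP90AB1, -0.38 to 0.061 for HSPH1 and -0.064 to 0.29 for HSPD1. With TPR D it moved from -0.44 to 0.20 for HSPA1A, -0.28 to 0.27 for HSPA1B, -0.10 to 0.24 for HSP90AA1, -0.32 to 0.22 for HSP90AB1, -0.12 to 0.43 for HSPB1, -0.40 to 0.041 for HSPH1 and -0.10 to 0.23 for HSPD1. The N/C ratio of HSPE1 in TPR A cells moved from -0.25 to 0.0012. With a minimum mean of 5 FPKM, HSPB1 had 0.017 in the total fraction with TPR A and HSPA8 -0.020 for the N/C change with TPR A; the cause was not tested. In each of the 25 ranges of changes, the culture labelled control replicate 2 gave one end. With 3 replicates per group, leaving out 1 culture was enough to change the sign of the values listed, and which limit weighs most was not tested.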
